A study of Mus musculus with 7 samples.

Results

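Leukocyte adhesion molecules on endothelium were followed as 9 genes, Sele, Selp, Vcam1, Icam1, Icam2, Cd34, Podxl, Mcam and Alcam, read as the rows of these symbols among the 27998 genes of a single-cell RNA-seq count matrix of mouse mammary gland. The matrix held 13684 cells from 7 female mice that had never been pregnant, on a mixed background of the strains FVB, 129 and C57BL/6J, all cycling and taken in diestrus. The young group was 3 mice aged 3 to 4 months (young A, B and C) and the aged group was 4 mice aged 13 to 14 months (aged A, B, C and D); the labels name no treatment and no engineered allele. The number 4 abdominal glands, with the lymph nodes taken out, were dissociated and each mouse gave a single droplet library, so 1 library stands for 1 mouse.

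Leukocytes leave the blood in steps. Selectins, the products of Sele (E-selectin) and Selp (P-selectin), catch rolling cells by the sugars these carry. Immunoglobulin-family receptors, encoded by Vcam1, Icam1 and Icam2, then hold the cells through leukocyte integrins. Mcam and Alcam belong to the same superfamily and act in contacts between cells. Cd34 and Podxl encode sialomucins, sugar-coated proteins of the endothelial surface, which carry L-selectin ligands in specialised vessels and also line capillaries and stem cells. In most tissues E-selectin, VCAM-1 and ICAM-1 are induced by inflammatory cytokines through the transcription factor NF-kB, P-selectin is stored in granules, and the venules are the usual site of leukocyte exit.

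The deposited annotation named 1819 cells vascular endothelial, 932 of them from young and 887 from aged mice, with 145 to 409 cells per mouse and a median of 4421 to 5736.5 UMIs (unique molecular identifiers, each marking 1 captured RNA molecule) per cell. Of these cells, 1817 (99.9%) held 2 or more UMIs of the defining endothelial markers Pecam1, Cdh5, Sox17, Kdr, Emcn and Eng. Over all cells a mouse had 6652599 to 16999625 UMIs, 101 barcodes occurred in more than 1 mouse, and cell barcodes of the young mice were written in a different form from those of the aged mice, so age and the handling of the libraries cannot be told apart. Levels are given as CPM, counts per 1000000 counts, here the UMIs of a gene over the UMIs of all cells of a type in a mouse, for mice with at least 3 such cells. In such sums, fewer expressing cells and less RNA per cell cannot be told apart.

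On the mouse genome (GRCm38), Sele at chr1:164048234-164057677 and Selp at chr1:164115264-164150026 lay on the same strand of chromosome 1, 57586 bases apart, and Cd34 lay on the same chromosome at chr1:194938819-194961279. Icam1 (chr9:21015985-21028817) and Mcam (chr9:44134469-44142727) were both on chromosome 9. Vcam1 was at chr3:116109949-116129688, Icam2 at chr11:106377656-106388075, Podxl at chr6:31519488-31563981 and Alcam at chr16:52248996-52454074. RefSeq start-site windows (GRCm38.p6, 250 bases before to 50 after the start) were at hand for 6 of the 9 genes. Those of Sele, Selp and Icam1, the genes with the steepest age difference in endothelium that had a window, are shown over their first 280 bases, all on the plus strand, at chr1:164047984-164048263, chr1:164115014-164115293 and chr9:21015690-21015969. Capitals mark TATAAA and GGANNTTCC, searched on both strands.
Sele: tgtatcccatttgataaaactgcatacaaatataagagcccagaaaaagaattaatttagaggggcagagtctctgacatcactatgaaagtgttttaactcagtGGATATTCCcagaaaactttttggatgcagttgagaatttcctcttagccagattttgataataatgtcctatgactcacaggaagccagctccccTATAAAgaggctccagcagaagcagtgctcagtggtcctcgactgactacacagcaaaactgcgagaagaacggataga
Selp: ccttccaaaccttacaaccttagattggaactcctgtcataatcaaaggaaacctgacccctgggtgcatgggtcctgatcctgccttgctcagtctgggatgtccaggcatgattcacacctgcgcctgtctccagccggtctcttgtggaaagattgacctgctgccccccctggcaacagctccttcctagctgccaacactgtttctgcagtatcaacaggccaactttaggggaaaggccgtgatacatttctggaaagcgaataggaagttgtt
Icam1: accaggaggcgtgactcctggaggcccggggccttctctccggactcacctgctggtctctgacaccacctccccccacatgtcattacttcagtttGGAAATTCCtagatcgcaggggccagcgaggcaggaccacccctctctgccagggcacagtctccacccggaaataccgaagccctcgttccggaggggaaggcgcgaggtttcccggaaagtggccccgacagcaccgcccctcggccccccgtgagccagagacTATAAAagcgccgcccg

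The Sele window held TATAAA 49 bases before the start and GGATATTCC 145 bases before it. The Icam1 window held GGAAATTCC 153 bases before the start, matched on both strands, and TATAAA 13 bases after it, whereas neither motif was found in the windows of Selp, Cd34, Mcam and Alcam. The start meant here is that of the RefSeq window. For Icam1 it differs from the gene start given above (21015985), and all printed Icam1 bases, which end at 21015969, lie before that gene start. Of all 32851 windows of this length, 13.6% held TATAAA and 4.26% held GGANNTTCC, a pattern that was picked after the sequences were seen. The NF-kB consensus GGGRNNYYCC (R is A or G, Y is C or T, N any base), a looser pattern, occurred in 8.46% of all windows. It was in none of the 6 member windows. A match of letters in such a window is a description, not a binding site.

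The first question was in which cells of the gland each gene was found (plot of levels by cell type). Sele was at 195 ± 154 CPM (SD, n = 7 mice) in vascular endothelial cells and at 46.2 ± 27.3 CPM in pericytes, the mural cells of small vessels, and Selp was at 2095 ± 1301 and 653 ± 400.0 CPM in the same types. For both selectins the ranges of these types overlapped, and the overlap was with the young endothelium. All other types were at or below 14.0 CPM of Sele and 63.0 CPM of Selp on average. Of the cells labelled pericytes, 223 of 231 young and 61 of 118 aged cells held 2 or more endothelial marker UMIs. Selp was nearly absent from the remaining cells of that label, as given further below. Pericyte levels of all genes here and below are therefore those of the deposited label. After each cell was thinned to 2000 UMIs, Sele was seen in 0.166% of luminal AV cells, 0.187% of luminal HS cells, 0.180% of myoepithelial cells and 0.301% of fibroblasts. It was also seen in 2.46% of Ma macrophages (3 of 122 cells) and 1.67% of T and B cells (1 of 60). No luminal HS-AV, dendritic, NK, lymphatic endothelial or Mb macrophage cell held it. Whether free RNA gave these few counts was not tested.

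Icam1 was widespread, and its mean was 1068 ± 699 CPM in vascular endothelial cells, 492 ± 326 CPM in lymphatic endothelial cells, 408 ± 122 CPM in pericytes and 406 ± 108 CPM in myoepithelial cells, and neighbours in this order overlapped. Vcam1 was not led by endothelium. It stood at 787 ± 338 CPM in the Mb macrophages, 598 ± 579 CPM in myoepithelial cells, 329 ± 246 CPM in vascular endothelial cells and 82.3 ± 53.2 CPM in fibroblasts, and each neighbouring pair overlapped. Icam2, which endothelium carries without stimulation, was highest in vessels, with 316 ± 125 CPM in lymphatic (n = 5 mice) and 229 ± 57.8 CPM in vascular endothelial cells and 159 ± 68.3 CPM in pericytes, against at most 38.6 CPM in any other type.

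The sialomucin Cd34 was highest in fibroblasts, which it also marks, at 527 ± 101 CPM, and every mouse's fibroblasts (at least 379 CPM) exceeded every mouse's vascular endothelial cells (at most 326 CPM), whose mean was 273 ± 53.4 CPM. Podxl, known from kidney podocytes and vascular lining, was found in pericytes (133 ± 60.0 CPM), in the mixed luminal HS-AV cells (118 ± 55.7 CPM, n = 6), in lymphatic endothelial cells (94.4 ± 65.2 CPM, n = 5) and in hormone-sensing luminal HS cells (74.1 ± 20.0 CPM), and its level in vascular endothelial cells (65.1 ± 22.3 CPM) overlapped all of these. Mcam, a marker of mural cells, led in pericytes with 53.8 ± 26.4 CPM, and vascular endothelial cells followed with 22.8 ± 11.9 CPM. Alcam, the CD6 ligand, was an epithelial and dendritic cell gene here, at 145 ± 50.3 CPM in luminal HS cells, 127 ± 54.7 CPM in HS-AV cells and 92.3 ± 24.8 CPM in dendritic cells (n = 5), and at 0.544 to 7.62 CPM in vascular endothelium.

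**Figure D1:**
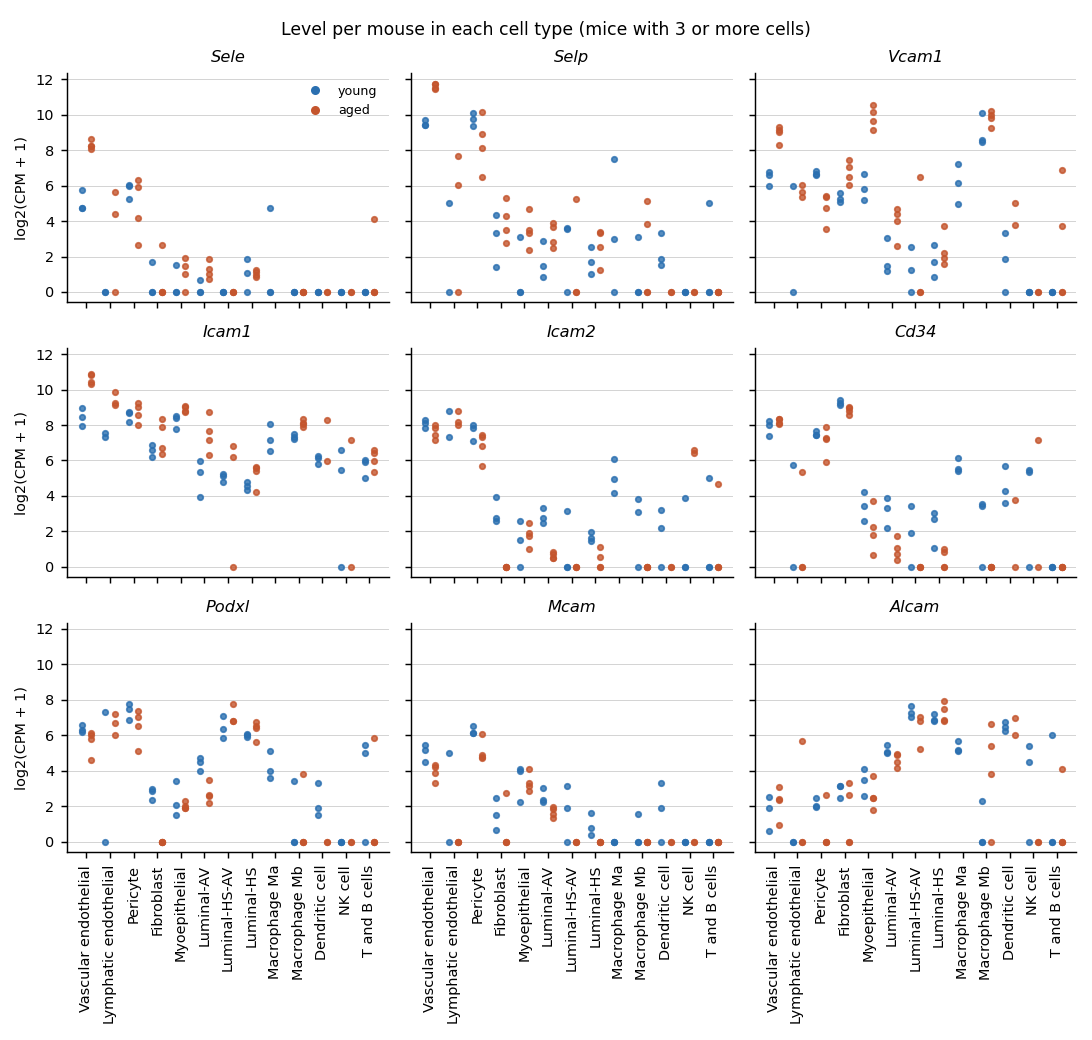
Level of each of the 9 genes per mouse and cell type on the log2(CPM + 1) scale, blue points for young and orange points for aged mice with at least 3 cells of the type. The selectins stand out in vascular endothelial cells and in cells labelled pericytes, many of which held endothelial marker UMIs. Cd34 stands out in fibroblasts, and Alcam in luminal HS, HS-AV and dendritic cells.

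The main comparison asked how these genes differed between aged and young endothelium. Of the 9 genes, 8 passed the filter on low counts and 5 were called in the edgeR quasi-likelihood test on per-mouse sums (Benjamini-Hochberg adjusted p under 0.05 and at least 1.5-fold), all 5 higher in aged mice, where 26.7% of all 7864 tested genes were called and 14.7% were called higher. The selectins and the inducible integrin ligands Vcam1 and Icam1 rose by 5.48-fold to 11.2-fold, Cd34 was 1.58-fold higher under this scaling, and Icam2, Podxl and Mcam were not called.

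Sele was at 52.0, 26.1 and 26.1 CPM in young A, B and C and at 270.2, 388, 303 and 300.2 CPM in aged A, B, C and D. The highest young mouse was far under the lowest aged mouse, and the means were 34.7 ± 14.9 CPM (SD, n = 3) and 315 ± 50.5 CPM (n = 4). The fitted log2 difference, aged against young, was 3.49 (SE 0.23, adjusted p = 7.12e-07) in edgeR. Selp, read in the same mice, was at 680.1, 682 and 822 CPM when young and 2930.5, 2748, 3440.3 and 3359.9 CPM when aged. Its groups were also well apart, with a log2 difference of 2.46 (SE 0.16, adjusted p = 7.12e-07) in edgeR.

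Vcam1, the ligand of integrin alpha4 beta1, was at 97.7, 61.5 and 107 CPM in the young and at 643, 569, 314 and 511 CPM in the aged mice. Aged C was the lowest aged mouse and still above all young mice, and the log2 difference was 2.90 (SE 0.26, adjusted p = 5.87e-06) in edgeR. Icam1, the ligand of LFA-1, was at 249, 344 and 488 CPM in young and 1803, 1287, 1390.4 and 1911 CPM in aged endothelium. Young C was the highest young mouse and lay under each aged mouse, with a log2 difference of 2.51 (SE 0.25, adjusted p = 1.28e-05) in edgeR. The other LFA-1 ligand, Icam2, was at 308, 227 and 276 CPM in young and 139.8, 251, 225 and 174 CPM in aged mice. Here the groups overlapped and the log2 difference was -0.10 (SE 0.18, adjusted p = 0.706) in edgeR.

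Cd34 was at 259, 168 and 297 CPM in young and 326, 319.9, 279 and 261 CPM in aged endothelium. The groups overlapped in CPM, and the call rested on the fitted log2 difference of 0.66 (SE 0.18, adjusted p = 0.0153) in edgeR. Podxl was at 73.4, 95.3 and 77.0 CPM in young and 23.3, 69.1, 63.3 and 54.6 CPM in aged mice. Every aged mouse was under every young mouse, yet the fitted log2 difference was -0.27 (SE 0.26, adjusted p = 0.463) in edgeR. Mcam was at 21.9, 35.4 and 42.6 CPM in young and 19.1, 9.08, 17.8 and 14.0 CPM in aged mice. Its groups also did not overlap and its log2 difference of -0.77 (SE 0.31, adjusted p = 0.0774) in edgeR was not called. Alcam, at 4.86, 0.544 and 2.75 CPM in young and 4.24, 4.19, 0.891 and 7.62 CPM in aged mice, was under the filter and was not tested.

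Cd34, Podxl, Mcam and Icam2 moved with the scaling. The edgeR fit used TMM factors, which set the median log2 difference of all tested genes at -0.05, whereas with total counts as library sizes that median was -0.41 and the share of called genes that were higher went from 55.0% to 22.4%. On the second scale Cd34 was no longer called (log2 difference 0.30, adjusted p = 0.198 in edgeR), Mcam was called lower (-1.13, adjusted p = 0.00778 in edgeR), and Icam2 (-0.46, adjusted p = 0.0693) and Podxl (-0.63, adjusted p = 0.0695) were not called. Sele, Selp, Vcam1 and Icam1 were called on both, with log2 differences of 3.12, 2.09, 2.53 and 2.15 on the second. Without young B the Cd34 call was lost as well (0.45, adjusted p = 0.0759 in edgeR), and without young A Mcam was called lower (-1.06, adjusted p = 0.0252 in edgeR).

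Markers of other cells also differed between the age groups in vascular endothelial cells. The 5 pericyte markers summed to 107 to 375 CPM in the young mice and 6.29 to 72.2 CPM in the aged mice, and the 5 fibroblast markers to 62.1 to 331 CPM in the young mice and 15.2 to 61.4 CPM in the aged mice. The 5 immune markers summed to 205 to 609 CPM in the young mice and 621 to 8702 CPM in the aged mice, nearly all of it Cd74, at 576, 188 and 484 CPM in young and 8697, 617, 669 and 2982 CPM in aged mice, while the pan-leukocyte gene Ptprc was at most 2.91 CPM in any mouse. The 3 platelet genes, which matter for P-selectin because platelets hold it too, summed to at most 27.7 CPM in the young and 14.6 CPM in the aged mice, and Ppbp was at 0 in all 4 aged mice. The 8 dissociation-response genes summed to 11179 to 15709.5 CPM in the young mice and 9254 to 11857 CPM in the aged mice, with Egr1 lower (log2 difference -1.13) and Atf3 higher (0.77) among them in edgeR. The 6 epithelial markers summed to 388 to 589.6 CPM in the young mice and 347 to 581 CPM in the aged mice, so the sums overlapped, and of the 5 tested, Krt14 (2.48) and Csn3 (1.18) were called higher in edgeR. With total counts as library sizes, Krt14 was still called higher, Csn3 was not called, and Krt8 (-0.66) and Krt18 (-0.98) were called lower. The part of these sums in the adhesion gene differences was not tested.

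**Figure D2:**
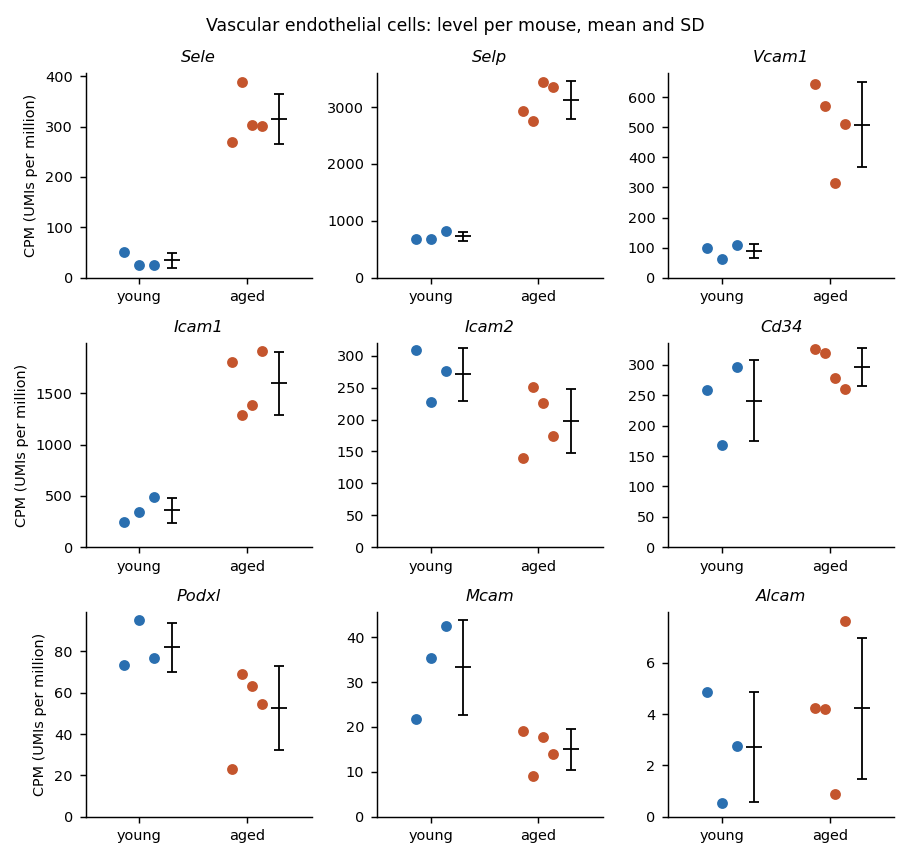
CPM of each gene in vascular endothelial cells per mouse, blue for young and orange for aged, with bars for the mean and SD (n = 3 and 4), each panel on its own linear axis from 0. Sele, Selp, Vcam1 and Icam1 separate the age groups widely, while Icam2, Cd34 and Alcam overlap.

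The higher sums came with more positive cells. Sele was detected in 13.7, 7.94 and 8.28% of the vascular endothelial cells of the young mice and 59.6, 58.9, 63.9 and 60.9% of those of the aged mice, Selp in 32.3% ± 3.00 of young and 85.0% ± 2.23 of aged cells (mean and SD over mice), Vcam1 in 18.5% ± 3.54 and 60.0% ± 3.39, and Icam1 in 60.9% ± 8.85 and 90.6% ± 3.92. For all 4 genes the exact permutation test of the difference of means gave p = 0.0286, the smallest that the 35 divisions of 7 mice into 3 and 4 allow, and 0.0571 if the smaller tail is doubled, so this test alone cannot go lower. Icam2 went the other way, with 67.3% ± 6.63 of young and 50.1% ± 2.15 of aged cells (exact permutation p = 0.0286), as did Mcam with 13.6% ± 3.65 and 7.20% ± 2.34 (exact permutation p = 0.0286). Podxl was detected in 28.9% ± 2.60 of young and 20.3% ± 6.16 of aged cells (exact permutation p = 0.0571). Cd34 was detected in 56.3% ± 9.95 of young and 69.8% ± 4.41 of aged cells (exact permutation p = 0.0857), and Alcam in 1.12% ± 0.758 and 2.46% ± 1.78 (exact permutation p = 0.286). These 9 exact tests are two-sided and not corrected for their number. How many of all genes reach the smallest p in this test, here or in thinned cells, is not given. The p values of the members therefore have no background beside them.

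At an equal depth of 2000 UMIs per cell the shares were 4.11% ± 2.64 and 39.7% ± 3.66 for Sele, 27.6% ± 3.04 and 81.2% ± 1.72 for Selp, 12.6% ± 3.45 and 40.3% ± 6.40 for Vcam1, and 39.5% ± 6.49 and 77.2% ± 6.84 for Icam1. The exact permutation p stayed at the smallest value for these 4 genes and for Icam2 (40.6% ± 6.17 and 27.4% ± 4.31), while Podxl (14.2% ± 2.62 and 8.34% ± 3.77) had p = 0.0857 and Mcam (5.71% ± 1.41 and 2.12% ± 1.37) had p = 0.0571 in the exact permutation test. Luminal AV cells, which are deeper, held Selp in 1.27%, Vcam1 in 2.18%, Icam2 in 0.373%, Mcam in 0.415% and Alcam in 5.54% of cells at this depth, and Alcam in vascular endothelial cells (0.440%) was under that share. The positive cells also held more molecules each. At that depth a Selp-positive cell carried 5.06 ± 0.628 Selp UMIs in young and 7.64 ± 0.802 in aged mice, and an Icam1-positive cell carried 1.73 ± 0.115 and 4.19 ± 0.456 Icam1 UMIs. Vcam1 went from 1.48 ± 0.0794 to 2.55 ± 0.396 and Sele from 1.15 ± 0.199 to 1.69 ± 0.234 UMIs per positive cell, with no test. For Icam2, Cd34, Podxl and Mcam the UMIs per positive cell of young and aged mice overlapped, as in Icam2 with 1.38 ± 0.0657 and 1.41 ± 0.198.

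More than 1 of the 4 inducible receptors was often seen in the same cell. At 2000 UMIs per cell, none of Sele, Selp, Vcam1 and Icam1 was seen in 50.6, 53.2 and 40.0% of the cells of young A, B and C and in 7.02, 8.07, 6.56 and 9.68% of those of aged A to D. Cells with 3 of the 4 made up 6.92% ± 1.23 of young and 35.5% ± 0.808 of aged endothelium, and cells with all 4 made up 1.12% ± 0.758 and 15.8% ± 3.08. No young mouse reached an aged mouse in either class. Higher shares of the single genes, given above, by themselves raise the number of cells with several receptors. What those shares alone would give was not computed, so these classes are not separate evidence that the genes rise in the same cells. Within a mouse, the phi correlation of detection over its cells had a median over the 7 mice of 0.294 (range 0.231 to 0.369) for Sele with Selp, 0.304 (range 0.143 to 0.578) for Selp with Icam1 and 0.259 (range 0.0360 to 0.427) for Selp with Vcam1, above 0 in 7 of 7 mice, and cells of a mouse share its library. Sele with Vcam1 was at 0.105 (range -0.00419 to 0.291).

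**Figure D3:**
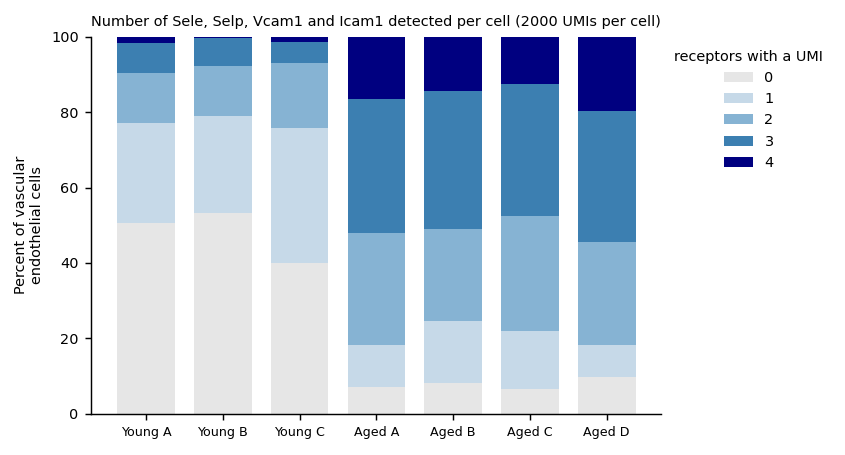
Percent of the vascular endothelial cells of each mouse with 0, 1, 2, 3 or 4 of Sele, Selp, Vcam1 and Icam1 detected after thinning to 2000 UMIs per cell. In each young mouse the 2 palest classes, 0 and 1 receptor, take most cells, and in each aged mouse the cells with 2 or more do.

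Venules carry Ackr1, the atypical chemokine receptor of postcapillary and collecting veins, so vascular endothelial cells were split by an Ackr1 UMI into 896 positive and 923 negative cells. Positive cells were 19.9% ± 2.56 of young and 80.0% ± 3.49 of aged endothelium, while the venous transcription factor Nr2f2 was seen in 25.9% ± 3.76 and 21.9% ± 2.78. With the mouse as a block, 7 of the 8 tested genes were called between the classes, where 21.8% of all tested genes were (10.7% higher and 11.1% lower in positive cells). Selp, Sele, Vcam1, Icam1 and Cd34 were higher in Ackr1-positive cells, and Podxl and Icam2 were lower.

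Selp was at 159, 197 and 332 CPM in the Ackr1-negative and 2429, 2708 and 2754 CPM in the positive cells of young A, B and C. In aged A to D it was at 533, 782, 757 and 229 CPM in the negative and at 3358, 3284, 4208 and 3910.0 CPM in the positive cells. Positive cells were higher in 7 of 7 mice, with a log2 difference of 3.31 (SE 0.20, adjusted p = 4.06e-10) in edgeR. For Sele the classes were at 7.89 ± 2.48 and 134 ± 48.9 CPM in young and 75.8 ± 46.3 and 372 ± 76.4 CPM in aged mice, a log2 difference of 3.21 (SE 0.26, adjusted p = 2.42e-08) in edgeR. Vcam1 differed by 2.36 (SE 0.30, adjusted p = 4.73e-06) on the log2 scale and Icam1 by 1.30 (SE 0.17, adjusted p = 6.13e-06) in edgeR. Both were higher in the positive cells in 7 of 7 mice.

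Cd34 was at 226 ± 74.1 and 301 ± 31.9 CPM in young and 159 ± 43.9 and 328 ± 31.2 CPM in aged negative and positive cells, a log2 difference of 0.95 (SE 0.17, adjusted p = 0.000238) in edgeR, which was under 1.5-fold in the young mice alone (0.53) and 1.35 in the aged mice alone. Podxl was at 90.2 ± 12.1 and 50.7 ± 16.5 CPM in young and 157 ± 85.8 and 28.3 ± 7.16 CPM in aged cells, lower in positive cells in 7 of 7 mice (log2 difference -1.68 (SE 0.25, adjusted p = 3.34e-05) in edgeR). Icam2 differed by -1.05 (SE 0.24, adjusted p = 0.00239) on the log2 scale in edgeR. In aged mice alone its difference was -1.69, and in young mice alone it was -0.22 and not called (adjusted p = 0.352 in edgeR), a contrast between the ages that was not tested. Mcam, at -0.06, was not called. With total counts as library sizes the same 7 genes were called, while the share of all called genes that were higher went from 49.2% to 31.8%. Splitting by an Nr2f2 UMI in place of Ackr1 left 1 member called, Icam2 (-0.69, adjusted p = 0.00111 in edgeR), with 56 genes called in all, and Selp (0.49, adjusted p = 0.243) and Sele (0.44, adjusted p = 0.244) were not called.

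The age difference was then read inside each class. Within Ackr1-positive cells (15.0% of tested genes called) Sele, Selp, Vcam1 and Icam1 were higher in aged mice, by 1.74, 0.83, 1.37 and 1.84 on the log2 scale, and Icam2 was lower (-0.60, edgeR adjusted p = 0.0494). Within Ackr1-negative cells (12.8% called) the same 4 receptors were higher, by 3.16, 1.42, 2.67 and 1.65, and Icam2 stood at 0.94 without being called (edgeR adjusted p = 0.0596). Within Nr2f2-positive cells (19.6% called) they were again higher, by 2.65, 1.38, 1.91 and 1.85. There Cd34 was called higher too (0.75), while Icam2 and Podxl were not called (edgeR adjusted p = 0.256 for both). Cd34 and Podxl were called in neither Ackr1 class, nor was Mcam in the positive class, and Alcam and elsewhere Mcam were under the filter. Ackr1 itself was at 1529 ± 99.8 CPM in young and 2412 ± 431 CPM in aged positive cells, so the split is not the same cut at both ages.

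The aged classes were also weighted by the share of UMIs that Ackr1-positive cells held in young mice (20.8%). This is arithmetic on classes set by Ackr1 detection, not a level that was observed. The aged to young ratio of Sele went from 9.07 as measured to 3.96, that of Selp from 4.29 to 1.68, that of Vcam1 from 5.74 to 3.30 and that of Icam1 from 4.43 to 2.90. All 4 stayed above 1, and the lowest weighted aged mouse was above the highest young mouse for each. For Icam2 and Podxl the ratio crossed 1, from 0.731 to 1.56 and from 0.642 to 1.59, and for Cd34 from 1.23 to 0.804. For Mcam it went from 0.450 to 0.407, and Alcam, at a few CPM, went from 1.56 to 2.32. These ratios are descriptions without a test, taken for the 9 members only. How many of all genes would keep the mice apart under this weighting was not computed.

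All 8 dissociation-response genes tested and all 6 arterial genes were lower in the Ackr1-positive cells, and the platelet gene Itga2b was higher (1.83 on the log2 scale in edgeR); what these values add to the class differences was not tested.

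**Figure D4:**
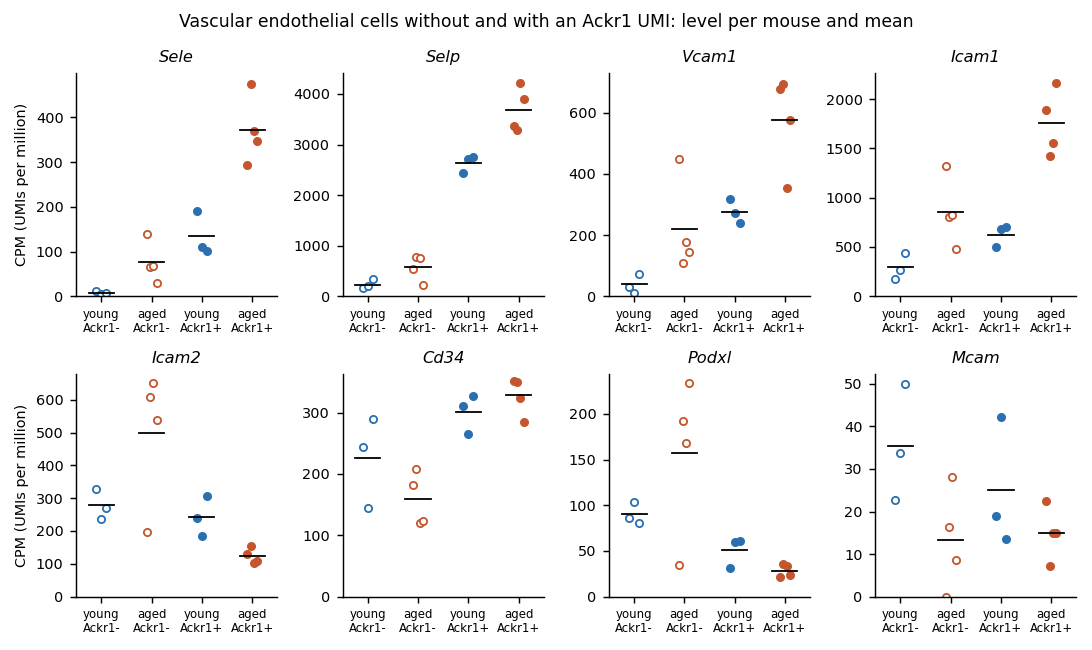
CPM of 8 of the genes in vascular endothelial cells without (open points) and with (filled points) an Ackr1 UMI, per mouse, blue for young and orange for aged, lines at the means. Sele, Selp, Vcam1 and Icam1 are higher in filled than in open points of the same age, Podxl is lower, and Icam2 is lower in the filled points of the aged mice.

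The same age comparison in the other cell types asked whether the endothelial pattern was shared. In pericytes 1 of 8 tested genes was called (11.8% of all tested genes). Vcam1 was at 113, 99.1 and 96.0 CPM in young and 42.1, 10.6, 39.6 and 25.7 CPM in aged pericytes, every aged mouse under every young one, with a log2 difference of -1.70 (SE 0.36, adjusted p = 0.00886) in edgeR. Sele was at 63.3, 62.3 and 36.6 CPM in young and 16.8, 5.30, 79.2 and 60.0 CPM in aged mice. Selp was at 1104, 847 and 649 CPM in young and 278, 90.1, 1131 and 472 CPM in aged mice. Both overlapped between the ages and neither was called (edgeR adjusted p = 0.725 and 0.464). Mcam was at 69.3, 90.6 and 68.6 CPM in young and 67.4, 26.5, 28.3 and 25.7 CPM in aged mice, and was not called (edgeR adjusted p = 0.100). Aged A was near the young mice there, and without aged A Mcam was called lower (-1.34, adjusted p = 0.0308 in edgeR), as was Selp without aged C (-1.53, adjusted p = 0.0293 in edgeR). The other tested genes, Icam1 (0.39, adjusted p = 0.393), Icam2 (-0.52, adjusted p = 0.331), Cd34 (-0.12, adjusted p = 0.845) and Podxl (-0.49, adjusted p = 0.405) in edgeR, were not called, and Alcam was under the filter. Markers moved in these cells too. The 5 fibroblast markers summed to 391 to 649 CPM in the young mice and 28.3 to 109 CPM in the aged mice, and all 4 tested were called lower (median log2 difference -2.45, against 0.01 over all genes). The 6 epithelial markers summed to 142 to 439 CPM in the young mice and 463 to 1698 CPM in the aged mice, with 2 of 4 tested higher (median 1.26), and the 8 dissociation-response genes to 11612 to 13115 CPM in the young mice and 13366 to 19072 CPM in the aged mice, with 4 of 8 higher (median 0.57). These counts are from edgeR with TMM factors and were not repeated with another scaling, and the part of these markers in the lower Vcam1 was not tested.

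The pericyte label held 2 kinds of cell by endothelial markers. Cells with 2 or more endothelial marker UMIs were 223 of 231 young (96.5%) and 61 of 118 aged (51.7%) pericytes, and they held the selectins: pooled over the group, Selp was at 982 CPM in young and 842 CPM in aged cells of this kind, against 0 and 12.4 CPM in the others. In the cells with endothelial UMIs alone, Vcam1 was no longer called (-1.01, edgeR adjusted p = 0.184, with 3.58% of tested genes called). The age difference of vascular endothelial cells minus that of pericytes was 4.62 for Vcam1, 3.89 for Sele, 3.49 for Selp and 2.25 for Icam1, all 4 called in the edgeR interaction test (9.07% of all tested genes), and 3.87, 3.32, 2.86 and 1.73 against the pericytes with endothelial UMIs, again all 4 called (5.76%). Icam2, Cd34, Podxl and Mcam were not called in the interaction test (edgeR adjusted p = 0.398, 0.0814, 0.687 and 0.774). Without aged D, Cd34 was called against pericytes (1.07, adjusted p = 0.0397 in edgeR).

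Myoepithelial cells, the contractile basal layer, had the largest fitted Vcam1 difference of the 6 types in which Vcam1 was tested, which leaves out luminal HS cells. Vcam1 was at 98.2, 54.1 and 35.7 CPM in young and 1502, 559, 801 and 1134 CPM in aged myoepithelial cells, each aged mouse well over each young one, with a log2 difference of 3.93 (SE 0.37, adjusted p = 4.00e-06) in edgeR. In total 3 of 5 tested genes were called there, against 27.6% of all tested genes. Icam1 was at 222, 339 and 367 CPM in young and 537, 443, 514 and 417 CPM in aged mice (log2 difference 0.76 (SE 0.20, adjusted p = 0.0112) in edgeR), and without young A that call was lost (adjusted p = 0.0861). Cd34 was at 17.9, 4.92 and 9.74 CPM in young and 3.67, 2.41, 12.3 and 0.570 CPM in aged mice and was called lower (-1.90 (SE 0.66, adjusted p = 0.0393) in edgeR) although its groups overlapped, and not without young C (-1.93, adjusted p = 0.0723). It passed the filter on low counts in only 2 of the 7 fits that left out a mouse. Mcam (0.34, adjusted p = 0.686) and Alcam (-0.95, adjusted p = 0.234) were not called in edgeR, and the other 4 genes were under the filter. The Cd34 call stands beside a fibroblast marker sum in these cells of 442 to 779 CPM in the young mice and 54.8 to 178 CPM in the aged mice. Relative to endothelium, the interaction (14.6% called) was -1.10 for Vcam1 (edgeR adjusted p = 0.0213), a smaller rise in endothelium, and 1.74 for Icam1 and 2.54 for Cd34. In DESeq2 only Icam1 was still called, with Vcam1 at -1.19 (adjusted p = 0.112) and Cd34 at 2.31 (adjusted p = 0.0767). None of the other 6 genes was called in edgeR (adjusted p from 0.154 to 0.892). The Vcam1 call was lost without young B (-1.11, adjusted p = 0.0540) or young C (-0.73, adjusted p = 0.158), and the Cd34 call without young A (1.66, adjusted p = 0.409), all in edgeR.

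In fibroblasts 1 of 4 tested genes was called, against 3.17% of all tested genes. Vcam1 was at 33.3, 36.9 and 47.1 CPM in young and 174, 132, 88.6 and 64.0 CPM in aged fibroblasts, again without overlap (log2 difference 1.80 (SE 0.31, adjusted p = 0.00629) in edgeR), and without aged A the call was lost (adjusted p = 0.0643). Cd34, at 602, 681 and 565 CPM in young and 379, 437, 519 and 503 CPM in aged mice, was lower in each aged than in each young mouse but not called (-0.35 (SE 0.20, adjusted p = 0.377) in edgeR). Icam1 (adjusted p = 0.111) and Selp (adjusted p = 0.776) were not called in edgeR, and the other 5 genes were under the filter. Against fibroblasts the endothelial age difference was greater by 1.24 for Vcam1, 1.53 for Icam1 and 1.13 for Cd34 (6.25% called), and DESeq2 called none of these 3. Sele, Selp, Icam2, Podxl and Mcam were not called (edgeR adjusted p from 0.0781 to 0.985). In that edgeR test Vcam1 was lost without young B (1.08, adjusted p = 0.0691) or aged D (1.01, adjusted p = 0.0535), Cd34 was lost without young B (0.83, adjusted p = 0.0991), and Selp (2.63, adjusted p = 6.65e-05) and Icam2 (adjusted p = 0.0251) were called without young C.

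In luminal AV cells, the secretory lineage, 5 of 8 tested genes were called, against 6.16% of all tested genes. Vcam1 was at 1.73, 7.19 and 1.24 CPM in young and 24.4, 5.08, 20.3 and 15.0 CPM in aged mice. Icam1 was at 60.6, 39.6 and 14.5 CPM in young and 418, 143, 198 and 79.4 CPM in aged mice, and these genes had log2 differences of 3.11 (SE 0.76, adjusted p = 0.0386) and 2.75 (SE 0.60, adjusted p = 0.0259) in edgeR. For Vcam1 the lowest aged mouse was under the highest young mouse, while the Icam1 groups did not overlap. Icam2 was at 5.77, 8.99 and 4.55 CPM in young and 0.658, 0.399, 0.409 and 0.806 CPM in aged mice and was called lower (-3.09 (SE 0.48, adjusted p = 0.00520) in edgeR). Cd34 was at 13.8, 3.60 and 9.09 CPM in young and 2.30, 0.299, 1.09 and 0.644 CPM in aged mice and was called lower as well (-2.94 (SE 0.60, adjusted p = 0.0192) in edgeR), and so was Podxl (-1.50 (SE 0.36, adjusted p = 0.0350) in edgeR). Selp (1.82, adjusted p = 0.135), Mcam (-0.73, adjusted p = 0.357) and Alcam (-0.30, adjusted p = 0.486) were not called in edgeR, and Sele was under the filter. Beside these, the endothelial marker sum in luminal AV cells was 23.6 to 66.4 CPM in the young mice and 12.0 to 16.9 CPM in the aged mice and the fibroblast marker sum was 84.5 to 381 CPM in the young mice and 9.67 to 33.2 CPM in the aged mice, and their part in the calls was not tested. Leaving out 1 mouse left 1 call (Icam2) without young A, young C or aged C, 2 without young B, 3 without aged A or aged D, and 5 without aged B.

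Luminal HS cells had no call among 3 tested genes in edgeR (6.26% of all tested genes, 2 of the 3 at an unadjusted p under 0.05) and none in DESeq2 (1 at an unadjusted p under 0.05). Icam1 there was at 23.0, 26.5 and 19.4 CPM in young and 48.0, 40.9, 17.7 and 46.1 CPM in aged mice, with overlap, and was called higher without aged C (1.11, adjusted p = 0.0183 in edgeR). Alcam, which was highest in these cells, was at 115, 145 and 111 CPM in young and 245, 109, 177 and 115 CPM in aged mice, and its log2 difference of 0.47 (SE 0.23, adjusted p = 0.250) in edgeR was not called. Podxl there was at 66.7, 63.7 and 59.3 CPM in young and 90.2, 106, 48.9 and 84.0 CPM in aged mice, with overlap, and was not called (0.53, adjusted p = 0.187 in edgeR). The Mb macrophages had none of 2 in edgeR (1.16%, 1 at an unadjusted p under 0.05) and none in DESeq2 (1 at an unadjusted p under 0.05), on 3 to 9 cells per aged mouse. Vcam1 there was at 377, 1082 and 356 CPM in young and 904, 601, 1162 and 1025 CPM in aged mice, and the groups overlapped. Neither Vcam1 (0.91, adjusted p = 0.295) nor Icam1 (1.03, adjusted p = 0.170) was called there in edgeR. With total counts as library sizes the share of called genes that were higher went from 60.9% to 34.3% in pericytes, 65.1% to 49.5% in fibroblasts, 46.4% to 36.2% in myoepithelial, 47.1% to 18.1% in luminal AV and 62.8% to 39.2% in luminal HS cells and 80.0% to 62.5% in Mb macrophages, while the members called there were the same. In the interactions it went from 71.5% to 47.5% against pericytes, 65.6% to 40.8% against myoepithelial cells, both with the same members called, and 72.5% to 35.5% against fibroblasts, where only Icam1 was still called.

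**Figure D5:**
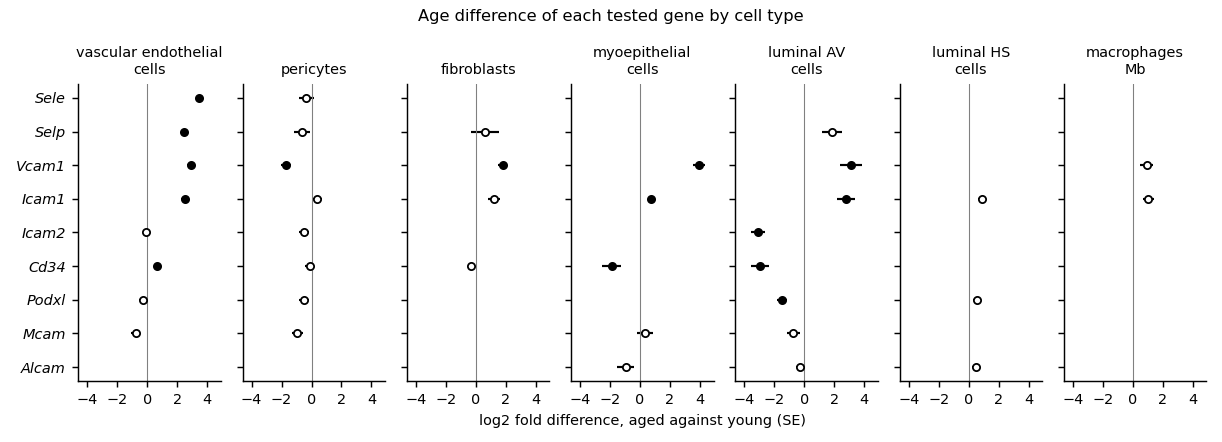
Log2 difference, aged against young, of each tested gene in 7 cell types with its SE as a bar (edgeR), filled points for called genes and open points for the others. Vcam1 lies to the right in vascular endothelial cells, fibroblasts, myoepithelial and luminal AV cells and to the left in pericytes.

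Other genes of leukocyte recruitment were counted from lists of known genes in aged against young vascular endothelial cells, beside the 14.7% called higher and 12.0% called lower of all tested genes and their median log2 difference of -0.05. The values in brackets are log2 differences in edgeR with TMM factors. Of 14 cytokine receptor and NF-kB feedback genes, all tested, 11 were higher and none lower (median 0.99), led by Il1r1, the interleukin-1 receptor (2.43), Tnfrsf1b, a TNF receptor (1.82), and Tnfaip3, the NF-kB inhibitor A20 (1.58). Of 9 leukocyte-attracting chemokines, all tested and with a median of -0.12, 4 were higher, with the neutrophil attractants Cxcl1 (2.90) and Cxcl2 (2.16) first, and 2 were lower, the monocyte attractant Ccl7 (-3.63) and Cxcl12 (-1.98). Of 5 tested genes of selectin ligand synthesis, 3 were higher, the sialyltransferases St3gal4 (2.43) and St3gal6 (0.66) and the sulfotransferase Chst2 (1.94), and Tpst1 was lower (-1.74). With total counts as library sizes, where the median of all genes was -0.41, the calls were 6 higher and 1 lower (Irf1, -0.85) for the cytokine receptor list, 4 and 4 for the chemokines, with Ccl2 (-1.81) and Cxcl9 (-0.98) now lower too, and 2 and 1 for selectin ligand synthesis, where St3gal6 was lost.

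Among 10 transmigration and junction receptors, Pvr was higher (1.29), and Pvrl2 (-1.43), F11r (-0.76) and Esam (-0.71) were lower, with a median of -0.21. Of the 6 sialomucins 4 were tested, of which Emcn (0.92) and Cd34 were higher and Madcam1, the gut-homing addressin, was lower (-2.24). Only 1 of the 11 leukocyte counter-receptors, Itgb1, passed the filter, and it was not called (-0.02). By vessel segment, 4 of 6 venous genes were higher, led by Ackr1 (2.99), Lrg1 (1.67) and Plvap (1.61), 2 of 6 arterial genes were higher (Bmx 2.93, Gja4 2.40) and Efnb2 was lower (-1.05), and all 5 capillary genes were lower, led by Gpihbp1 (-3.15), Car4 (-2.79) and Rgcc (-2.51). With total counts as library sizes Cdh5 (-0.87) and Jam3 (-0.97) were called lower as well, so that 5 of the 10 junction receptors were, and neither Emcn nor Cd34 was called higher among the sialomucins, while the venous, arterial and capillary counts were unchanged.

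Over 58 sums of a mouse and a cell type with at least 10 cells, in 12 types and among 13874 genes, the genes whose log2(CPM + 1) ran most like each member were taken by Pearson r, as a description in which sums of 1 mouse share a library. Selp was most like Ackr1 (0.927), Hoxb9 (0.910) and Lhx6 (0.909), and Sele most like Hoxb9 (0.904), Stmn2 (0.897) and Selp (0.897). Vcam1 and Icam1 had lower top values, with Apoe (0.766), Hspa5 (0.764) and Icam1 (0.762) for Vcam1 and Tiparp (0.824), Nfe2l2 (0.804) and Casp4 (0.774) for Icam1. Icam2 ran with C1qtnf9 (0.935), Cyyr1 (0.930) and Ablim3 (0.926). Cd34 ran with Ramp2 (0.960), Ebf1 (0.927) and Cadm3 (0.907). The neighbours of Podxl were Lmo7 (0.854) and Cd200 (0.839), those of Mcam were Ppp1r14a (0.896), Nes (0.872) and Synm (0.850), genes of contractile mural cells and intermediate filaments, and those of Alcam were Mboat1 (0.802), Capsl (0.797) and Dpep2 (0.791).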

How the data were processed

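Cells of the abdominal mammary glands of 3 young and 4 aged mice were profiled with droplet single-cell RNA-seq (10x Chromium, 3′ kit). The authors aligned the reads and counted UMIs with Cell Ranger 2.0 (mm10), left out cells by UMI count, gene count and mitochondrial share, and deposited the unnormalized UMI counts as a matrix of genes by cells, with a table of the cells. In that table the authors gave each cell's mitochondrial fraction, Seurat cell-cycle scores (not used here) and a cell type name, which was taken as given. The authors aimed their cell filters at likely doublets and estimated doublets with Scrublet and DoubletFinder; no caller was run here. Of the 27998 genes, 8959 had no count.

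For each mouse, the counts of a type's cells were added up where it had 3 or more of them. These sums were tested with edgeR 4.0.16 (quasi-likelihood, filterByExpr, TMM, R 4.3.3), with Benjamini-Hochberg adjustment over all tested genes and at least 1.5-fold for a call. Interactions and the Ackr1 classes had the mouse as a block. The SE of an edgeR value was computed as the size of the log2 difference over the square root of the F statistic. It therefore restates the test and is not a separate estimate of precision. The fits were tested on simulated data. Shares of cells were compared by exact permutation of the mice (35 divisions), on the size of the difference between group means, whose smallest p is 0.0286, or 0.0571 if 1 tail is doubled, a convention settled after the values had been seen. Libraries with the same letter in both ages did not deviate together in endothelium (r of -0.07, -0.08 and 0.01 over 7864 genes), so no pairing was used. Alternatives were DESeq2 1.42.0, other scalings and filters, and leaving out mice. The totals per mouse and the spread between mice, 1 library each, set the precision, and intervals of counts would cover counting error only.

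The members, the gene lists and the tests were chosen with earlier results of these data known. The rule for named genes took all 9 members in each fit (uncalled ones are partly given as a range of p), up to 3 called genes of each list by the size of their log2 difference, and the 3 genes most like each member in sums of at least 10 cells, among genes of at least 10 CPM in 1 sum, of which 1 is not reported here. Sequences are RefSeq windows on GRCm38.p6, matched for 6 of 9 members. Figures were drawn with matplotlib 3.10.9 and tables made with pandas 2.3.3, scipy 1.17.1 and numpy 2.4.6 in Python 3.11.15.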

Additional observations from a re-analysis of the deposited data

Results flagged for a closer look

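In pericytes of the aged mice, Mcam stood at 67.4 CPM in aged A against 25.7 to 28.3 CPM in the other 3 aged mice, a gap larger than Dixon's 95% limit. It was the only far sample among 38 groups of 4 aged mice and a gene, and chance gives about 1 in 20. Aged A had 24 pericytes.

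The age difference of some genes itself differed between vascular endothelial cells and another type in the edgeR interaction test. Against pericytes the difference in endothelium exceeded that in pericytes by 3.89 for Sele, 3.49 for Selp, 4.62 for Vcam1 and 2.25 for Icam1 on the log2 scale, beside an endothelial marker sum in pericytes of 2154 to 2509 CPM in the young and 943 to 1612 CPM in the aged mice. Against fibroblasts it was larger by 1.24 for Vcam1, 1.53 for Icam1 and 1.13 for Cd34. Against myoepithelial cells it was -1.10 for Vcam1, which rose more in myoepithelial cells, and 1.74 for Icam1 and 2.54 for Cd34. DESeq2 called none of the 3 genes against fibroblasts and only Icam1 against myoepithelial cells.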

How the results depend on the processing

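The values compared here included those of single genes and the counts of all called genes. Under the alternatives other than leaving out 1 mouse at a time, 570 stayed the same, 27 lost and 9 gained a call and 12 changed sign. Another 20, which were counts of all called genes, moved. Some of these alternatives also dropped mice: the replicate block was without aged D, and the Ackr1 classes were also fitted in 1 age alone. On leaving out 1 mouse, 498 stayed the same, 29 lost and 7 gained a call, 26 moved and 13 changed sign. Sele, Selp, Vcam1 and Icam1 in vascular endothelial cells were called under every alternative run, from 0.83 (Selp, Ackr1-positive cells) upwards, and Cd34 was not called with total counts, in Ackr1-positive or Ackr1-negative cells, without young B, or if every pair of a young and an aged mouse had to differ the same way by a minimum fold (pairwise criterion). The settings with Ackr1, Nr2f2, endothelial UMIs, 1 age alone and total counts were chosen after seeing the data.

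The members called went in pericytes from 1 to 2 with no filter on low counts and to 0 with the label letters as a replicate block or with marker-rich cells only, in fibroblasts from 1 to 3 and 0 (no filter, replicate block), in luminal AV cells from 5 to 3 (pairwise criterion, replicate block), in luminal HS cells from 0 to 3 (no filter), in the interaction with fibroblasts from 3 to 0 (DESeq2), 1 (total counts) and 5 (no filter), in that with myoepithelial cells from 3 to 1 (DESeq2), and between Ackr1 classes from 7 to 1 (Nr2f2). The thinned Mcam share differed by -3.59 percentage points (exact permutation p = 0.0571). Leaving out 1 mouse gave 0 to 1 members called in fibroblasts, 1 to 5 in luminal AV, 0 to 1 in luminal HS, 1 to 3 in myoepithelial cells, 1 to 2 in pericytes and 1 to 5 in the interaction with fibroblasts. The replicate block changed no call in vascular endothelial cells.

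Signs turned for log2 values of genes that were not called there. In Ackr1-negative cells these were Icam2 at 0.94, Cd34 at -0.41 and Podxl at 0.93, in marker-rich pericytes Icam2 at 0.18, Cd34 at 0.54 and Podxl at 0.13, and in the interaction with these Icam2 at -0.19 and Podxl at -0.31. Between Ackr1 classes Mcam was at 0.0015 with no filter, 0.29 for Ackr1 or Vwf and 0.21 in aged mice alone, and Cd34 at -0.0093 for Nr2f2. On leaving out 1 mouse the ranges were -0.20 to 0.16 for Mcam between Ackr1 classes, -1.74 to 3.76 for Mcam and -1.14 to 6.88 for Sele in the interaction with fibroblasts, -0.68 to 0.38 for Podxl and -4.23 to 1.81 for Selp in that with myoepithelial cells, -0.049 to 0.51 for Mcam in that with pericytes, -0.55 to 0.87 for Mcam in myoepithelial cells, -0.36 to 0.092 for Cd34 and -1.09 to 0.12 for Sele in pericytes, and -0.21 to 0.028 for Icam2 in vascular endothelial cells.

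Of all genes, 2099 were called in vascular endothelial cells against 898, 485 and 677 in the Ackr1-positive, Ackr1-negative and Nr2f2-positive ones, 307 in pericytes against 560 (no filter), 161 (replicate block) and 76 (marker-rich), 175 in fibroblasts against 582 and 51 (no filter, replicate block), 1860 in myoepithelial cells against 1198 and 1238 (pairwise criterion, replicate block), 678 in luminal AV cells against 1039 and 400 (total counts, replicate block), 529 in luminal HS cells against 1215 and 206 (no filter, replicate block), 10 in Mb macrophages against 45 and 71 (DESeq2, no filter), 715 in the interaction with pericytes against 467 and 437 (DESeq2, marker-rich), 1326 in that with myoepithelial cells against 779 (DESeq2) and 1439 between Ackr1 classes against 56 (Nr2f2). Leaving out 1 mouse gave 128 to 347 in pericytes, 68 to 150 in fibroblasts, 977 to 1829 in myoepithelial, 201 to 619 in luminal AV and 134 to 554 in luminal HS cells, 2 to 9 in Mb macrophages, and 296 to 685 and 560 to 1222 in the interactions with pericytes and myoepithelial cells. Fewer cells or mice enter the subsets and the replicate block, and the cause of the other moves was not tested. At least 10 cells per mouse could not be run for Mb macrophages. Alcam in endothelium and Sele outside vessels rested on few counts, and every gene in lymphatic endothelial cells on few cells. Whether depth limits these values was not tested.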

Other observations

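Lymphatic endothelial cells were few, 28 in all, and entered no age test. Icam1 was at 188 and 158 CPM in young A and young C and at 944, 566 and 604 CPM in aged B, aged C and aged D, the mice with at least 3 such cells, from 6 and 3 UMIs in the young and 19, 28 and 19 UMIs in the aged mice. Every aged value was above every young value, on 3 to 7 cells a mouse. Podxl in these cells was between 0 and 158 CPM and Icam2 between 158 and 447 CPM.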
